A study of Homo sapiens with 8 samples.

Results

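Transcripts of 9 Polycomb genes were followed through 8 RNA-seq libraries of Kyse510, an esophageal squamous carcinoma cell line. The genes were EZH2, EZH1, SUZ12, EED and JARID2 of Polycomb repressive complex PRC2, and RNF2, BMI1, CBX2 and CBX8 of PRC1. They were taken by symbol, and all 9 were found among the 31582 genes of the inhibitor table and the 28942 genes of the knockdown table, which share 26360 genes. In the pharmacological arm, cells received vehicle (DMSO), 7 µM SP2509 (an inhibitor of the histone demethylase LSD1, encoded by KDM1A), 7 µM UNC0642 (an inhibitor of the H3K9 methyltransferase G9a, encoded by EHMT2, and of its partner GLP), or both compounds, for 2 days. No separate doses are given for the combination. In the genetic arm, Kyse510 carried a doxycycline- (Dox-) inducible shRNA against LSD1 (shLSD1) or G9a (shG9a) and was selected with puromycin for 14 days. Each line was sequenced without Dox and after 2 days with Dox, its uninduced culture serving as its control, so that doxycycline and the hairpin cannot be told apart. The series' text speaks of stable clones without saying how many made up a line.

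Polycomb proteins keep developmental genes silent. In PRC2, EZH2 or its paralog EZH1 methylates histone H3 at lysine 27 within a core completed by SUZ12 and EED, and JARID2 is an accessory subunit that helps to bring the complex to chromatin. In PRC1, RNF2 (also RING1B) or RING1 is the E3 ligase for histone H2A, paired with a PCGF protein such as BMI1. In canonical PRC1 a CBX chromodomain protein such as CBX2 or CBX8 reads the H3K27 mark. EZH2 is known to rise with E2F activity in dividing cells, while EZH1 is also kept in resting ones.

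Each condition had 1 library, so no value has a replicate check. The deposited FPKM values were traced back to reads. The total behind the FPKM of each library was an estimated 15662035 to 17889466 reads, with 163 to 2734 reads per Polycomb gene. Whether a count is a read pair or a single read of a pair is not given. With single reads, the tests and intervals below would be too narrow. A gene was called when it had 1 FPKM in at least 1 library of the pair, a fold change of 1.3 on FPKM + 1, and an unadjusted p below 0.05 when its reads were tested, two-sided, with the exact binomial test. This test compares 2 libraries and not conditions, and the 95% intervals below cover counting error only. With Dox, KDM1A was at 6.29 FPKM in the shLSD1 line against 26.0 FPKM without, and EHMT2 at 4.76 FPKM in the shG9a line against 7.85 FPKM. KDM1A was called higher with Dox in the shG9a line, from 26.4 to 35.8 FPKM. EHMT2 was at 11.1 FPKM with vehicle and 5.38 FPKM with both inhibitors. Of the 8 squamous markers, 6 to 8 reached 1 FPKM in each library, and KRT5 was between 74.6 and 734 FPKM. The markers did not move as 1 group: KRT5, KRT17 and SOX2 were at 427, 324 and 18.3 FPKM with vehicle and at 734, 3716 and 0.313 FPKM with SP2509, and in the shLSD1 line KRT17 went from 1737 to 265 FPKM with Dox while SOX2 went from 5.24 to 20.1 FPKM. Their part in the Polycomb values was not tested. Markers of leukocytes, endothelium, fibroblasts and columnar epithelium summed to 3.08 to 7.12 FPKM, of which COL1A1 made 2.92 to 5.36 FPKM, and the leukocyte gene PTPRC did not exceed 0.0425 FPKM. Other annotated genes that overlap the 9 Polycomb genes did not exceed 2.72 FPKM. In bulk RNA, fewer cells of a type and less RNA per cell cannot be told apart.

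All 9 genes passed the filter in every comparison. Over the 5 comparisons, 6 of 45 values were called higher and 7 lower, and SUZ12 and RNF2 were called in none. SP2509 moved most of them. JARID2 rose, and EZH2, EED, BMI1 and CBX2 fell, against 18.2% of 13342 tested genes called higher and 37.5% called lower. UNC0642 had 1 call, a lower EZH2, against 15.8% of tested genes called higher and 14.0% called lower. Both inhibitors together had JARID2 and CBX2 higher and EZH1 lower, against 29.0% called higher and 29.1% called lower. Induction of shLSD1 had EZH2 and EED higher and JARID2 lower, against 22.7% called higher and 10.4% called lower. Induction of shG9a had CBX8 higher and none lower, against 30.0% and 15.8%. The counts for the 9 genes were near or below the shares over all genes and are no result about Polycomb genes as a group. The median log2 fold change of the 9 genes was -0.32 with SP2509, 0.04 with UNC0642, 0.17 with both, 0.08 with shLSD1 and 0.27 with shG9a. Over all tested genes it was -0.21, -0.01, -0.02, 0.13 and 0.18, in the same order.

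The 2 lines without Dox show how far 2 libraries differ without a treatment, each line carrying its own uninduced hairpin. None of the 9 genes was called between them, against 1.36% of 12449 genes called higher and 2.16% called lower in the shG9a line. The exact binomial p was below 0.05 for 2 of them, EZH2 and RNF2, which missed the fold change. The log2 differences of the 9 genes ran from -0.15 for RNF2 to 0.24 for EZH2. Of the 45 values in the 5 comparisons, 26 were larger in size than the latter. Such sizes were common over all tested genes, whose log2 fold changes had quartiles of -0.675 and 0.27 with SP2509. The quartiles were -0.26 and 0.26 with UNC0642, -0.53 and 0.54 with both, -0.14 and 0.38 with shLSD1, and -0.19 and 0.48 with shG9a. The share of all genes beyond the EZH2 difference was not counted. The 95th percentile of the absolute difference between these lines over all tested genes was 0.48, and 9 of the 45 values exceeded it. All 9 were inhibitor values, from the other, separately normalized table. The largest values with Dox, JARID2 at -0.43 with shLSD1 and CBX8 at 0.43 with shG9a, lay within it. Over all tested genes, the lower quartile with SP2509 and both quartiles with both inhibitors were also larger in size than 0.48. The upper quartile with shG9a was 0.48. Values beyond this percentile were thus common over all genes, and their share in the 5 comparisons was not counted.

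**Figure D1:**
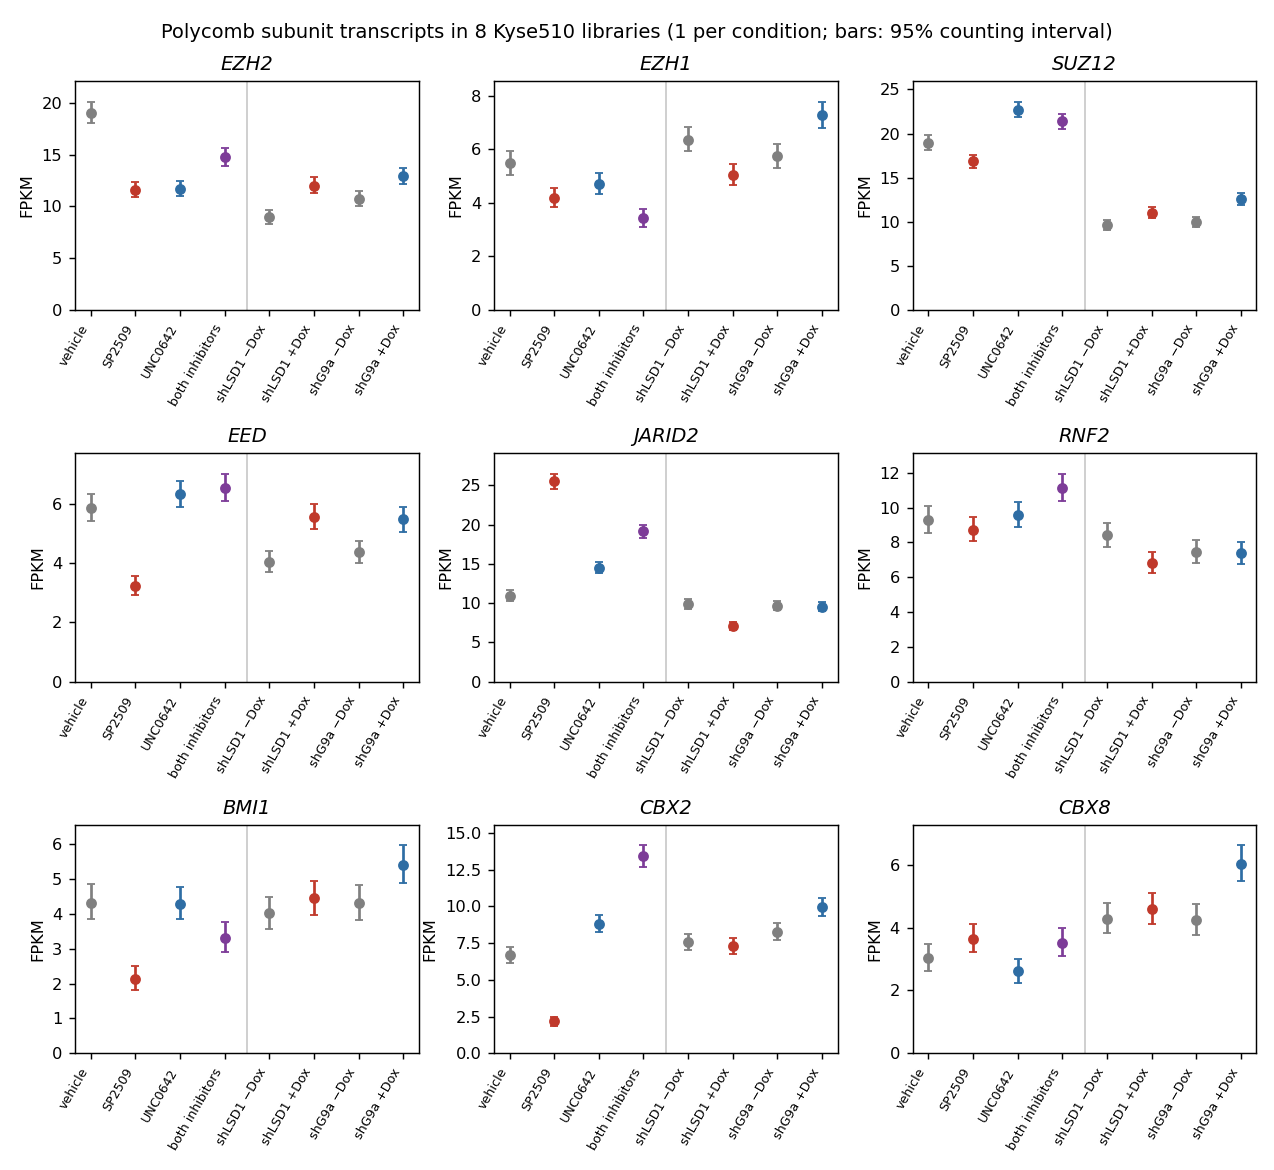
FPKM (vertical axis, from 0) of each Polycomb gene in the 8 libraries (horizontal axis), with 95% counting intervals as bars and a line between the separately normalized inhibitor and knockdown tables. JARID2 reached 25.5 FPKM and CBX2 fell to 2.17 FPKM with SP2509, whereas RNF2 stayed between 6.83 and 11.1 FPKM in all libraries.

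Among the PRC2 core genes, EZH2 (ENSG00000106462, chr7:148807383-148884321, − strand) had 1 of the most abundant transcripts. All positions are those of the deposited tables on GRCh38. EZH2 stood at 19.1 FPKM with vehicle, 11.6 FPKM with SP2509, 11.7 FPKM with UNC0642 and 14.8 FPKM with both. In the shLSD1 line it went from 8.96 to 12.0 FPKM with Dox, and in the shG9a line from 10.7 to 12.9 FPKM. All 3 inhibitor libraries were thus below vehicle, the 1 library they share as control, and both induced libraries were above their own controls. The 3 inhibitor comparisons are therefore not independent. EZH2 fell by 0.67 on the log2 scale of FPKM + 1 with SP2509 (FPKM ratio 0.609, 95% interval 0.560 to 0.662) and by 0.66 with UNC0642 (ratio 0.613, 0.564 to 0.667). With UNC0642, 7.15% of tested genes fell at least as far, and with SP2509 25.3%. With both compounds the ratio was 0.774 (0.715 to 0.838), short of a call, and the level was 1.27-fold (1.17 to 1.39) that with SP2509 alone. The rise with shLSD1 was 1.34-fold (1.22 to 1.48) and that with shG9a 1.20-fold (1.09 to 1.32). Of all tested genes, 24.1% and 44.2% rose at least as far, in the same order. EZH2 was 1.20-fold (1.08 to 1.33) higher in the uninduced shG9a line than in the uninduced shLSD1 line, a difference without treatment as large as the shG9a value.

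EED (ENSG00000074266, chr11:86244544-86278813, + strand), the WD-repeat subunit that binds trimethylated H3K27, moved with EZH2 in 2 comparisons. It was at 5.85 FPKM with vehicle, 3.23 FPKM with SP2509, 6.33 FPKM with UNC0642 and 6.54 FPKM with both, so that only SP2509 stood apart. The ratio with SP2509 was 0.553 (0.487 to 0.627), where 24.1% of tested genes fell at least as far. The combination was 2.02-fold (1.79 to 2.29) above SP2509 alone. With Dox EED went from 4.03 to 5.56 FPKM in the shLSD1 line (1.38-fold, 1.23 to 1.55), which was called. There 24.5% of tested genes rose at least as far. In the shG9a line EED went from 4.36 to 5.47 FPKM (1.26-fold, 1.12 to 1.41), which was not called. The shLSD1 calls of EZH2 and EED ended with ratios centred on the median (log2 0.28 and 0.27) and when the mean of both uninduced lines was the control (0.26 and 0.34). SUZ12 (ENSG00000178691, chr17:31937018-32001045, + strand), the scaffold of the core, was called nowhere. It was at 18.9, 16.8, 22.7 and 21.4 FPKM with vehicle, SP2509, UNC0642 and both, and went from 9.66 to 11.0 FPKM and from 9.95 to 12.6 FPKM with Dox in the shLSD1 and shG9a lines. Its widest ratio was 1.26 (1.17 to 1.37), with shG9a. SUZ12 has a transcribed pseudogene, SUZ12P1, at 0.833 to 2.29 FPKM, and reads could be split between them.

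The starts of EZH2 and EED, which were both called lower with SP2509 and higher with shLSD1, are shown for comparison with those of JARID2, called in the reverse directions. They run from 250 bases before to 30 bases after the RefSeq start on GRCh38.p14, 5′ to 3′ on the gene's strand. Capitals mark matches, on either strand, to an E2F motif (TTTCCCGC, TTTCGCGC, TTTGCCGC or TTTGGCGC), the NF-Y motif CCAAT and the cyclic AMP response element (CRE) TGACGTCA.
EZH2, first of its RefSeq starts, chr7:148884262-148884541, − strand: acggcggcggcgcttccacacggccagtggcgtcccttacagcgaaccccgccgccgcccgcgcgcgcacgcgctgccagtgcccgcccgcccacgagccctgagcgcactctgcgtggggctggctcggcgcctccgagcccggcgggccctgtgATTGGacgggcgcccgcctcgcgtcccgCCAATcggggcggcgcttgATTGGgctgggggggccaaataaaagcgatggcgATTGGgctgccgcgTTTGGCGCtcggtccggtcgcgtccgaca
EED, chr11:86244503-86244782, + strand: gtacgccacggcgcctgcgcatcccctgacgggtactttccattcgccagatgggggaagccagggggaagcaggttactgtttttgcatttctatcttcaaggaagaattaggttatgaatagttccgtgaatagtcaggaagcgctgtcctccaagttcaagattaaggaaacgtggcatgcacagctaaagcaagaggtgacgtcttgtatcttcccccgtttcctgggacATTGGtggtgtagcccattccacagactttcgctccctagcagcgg
JARID2, first of its RefSeq starts, chr6:15245819-15246098, + strand: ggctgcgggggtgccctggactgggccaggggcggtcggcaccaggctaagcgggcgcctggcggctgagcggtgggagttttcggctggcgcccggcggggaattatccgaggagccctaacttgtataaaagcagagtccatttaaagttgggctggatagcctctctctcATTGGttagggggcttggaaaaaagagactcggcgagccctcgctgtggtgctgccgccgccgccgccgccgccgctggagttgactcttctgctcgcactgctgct
JARID2, second of its RefSeq starts, chr6:15248605-15248884, + strand: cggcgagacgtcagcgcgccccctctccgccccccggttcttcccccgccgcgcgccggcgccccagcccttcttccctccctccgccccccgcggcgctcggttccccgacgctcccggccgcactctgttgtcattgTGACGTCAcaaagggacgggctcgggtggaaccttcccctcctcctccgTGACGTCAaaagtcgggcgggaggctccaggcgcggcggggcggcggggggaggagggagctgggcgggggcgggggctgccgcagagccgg
The first EZH2 start held 1 E2F match, beginning at base +2, and 4 NF-Y matches, the EED start and the first JARID2 start 1 NF-Y match each, and the second JARID2 start 2 CRE matches, at -111 and -62. The second EZH2 start, at chr7:148883436-148883735, held no match to any motif searched and is not shown. RefSeq promoters of 300 bases were at hand for 7 of the 9 genes, and not for CBX2 and CBX8. An E2F match was in promoters of EZH2, EZH1 and SUZ12, against 3.31% of 35116 promoters, an NF-Y match in those of EZH2, SUZ12, EED and JARID2 (34.6% of all), a CRE in JARID2 alone (1.85%), and the cell cycle motif CHR (TTTGAA or TTCGAA) in SUZ12 alone (16.4%). The 7 genes had 10 promoters, so genes are here set against shares per promoter. The promoters of EZH2, EZH1 and SUZ12 with the E2F match were 74.67%, 67% and 73% GC, against a median of 58.67% over all promoters. Shares among promoters of like GC were not counted. The E2F and NF-Y letters did not overlap. At the main settings EZH1 and SUZ12, which also held an E2F match, were not called with EZH2 in any comparison. With ratios centred on the median, EZH2 (log2 -0.38) and EZH1 (-0.59) were both called lower with both inhibitors. The part of E2F in these values was not tested.

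**Figure D2:**
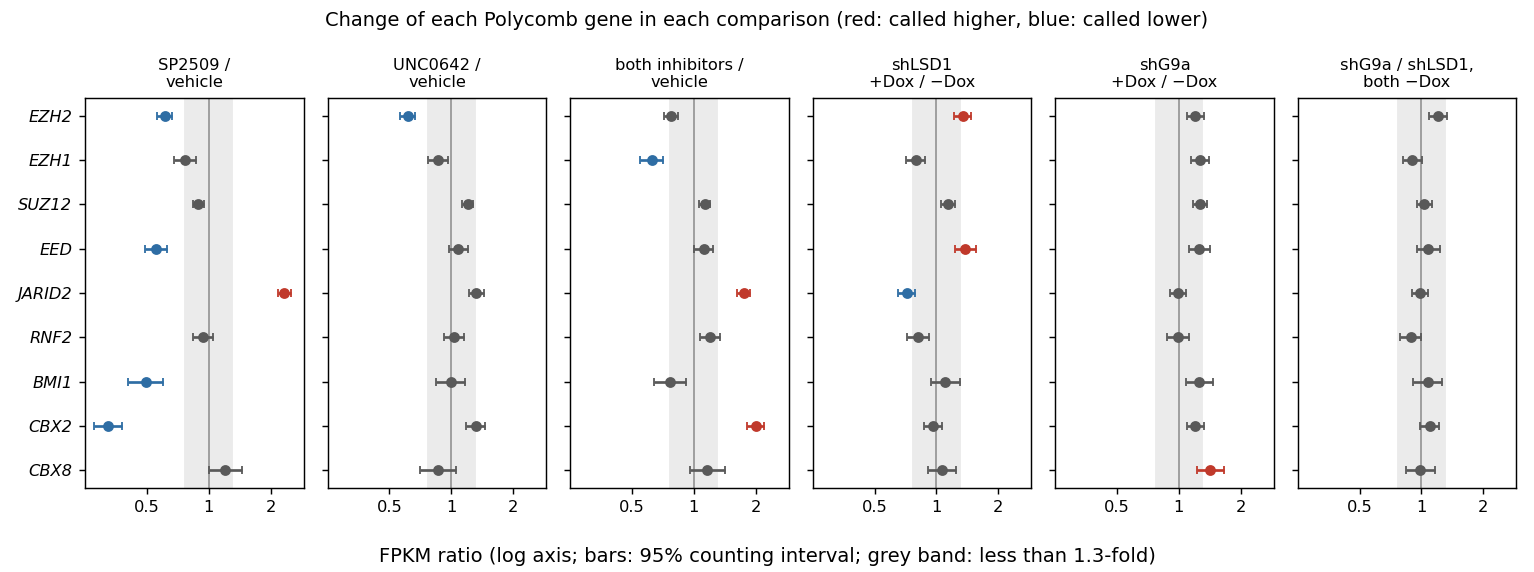
FPKM ratio of each Polycomb gene in each comparison (horizontal log axis), with 95% counting intervals, red where called higher and blue where called lower. JARID2 was called in opposite directions with SP2509 and shLSD1, as were EZH2 and EED, and the last panel, between the 2 uninduced lines, holds no call.

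EZH1 (ENSG00000108799, chr17:42700275-42745049, − strand), the less active methyltransferase, was at 5.48 FPKM with vehicle, 4.20 FPKM with SP2509, 4.71 FPKM with UNC0642 and 3.42 FPKM with both. The combination had the lowest level and the single call (ratio 0.625, 0.549 to 0.710), where 24.1% of tested genes fell at least as far. It went from 6.36 to 5.04 FPKM with Dox in the shLSD1 line (0.793, 0.713 to 0.882), and from 5.74 to 7.28 FPKM in the shG9a line (1.27, 1.14 to 1.40). The intervals lay on opposite sides of 1, and neither value was called. EZH2 exceeded EZH1 per length in all libraries, by 3.48-fold with vehicle, 2.77-fold with SP2509, 2.49-fold with UNC0642 and 4.32-fold with both. In the shLSD1 line this ratio went from 1.41 to 2.38 with Dox, where EZH2 rose and EZH1 was at 0.793 of its control. In the shG9a line it was 1.87 and 1.78, both genes being higher with Dox without a call. The sum of the 2 methyltransferases was 24.6 FPKM with vehicle and 15.8 to 18.2 FPKM in the 3 inhibitor libraries.

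Over the 5 log2 fold changes, the protein-coding genes nearest to EZH2 among 10550 were ZNF77 (Euclidean distance 0.17), ZNF774 (0.26) and ZNF280C (0.27). Those nearest to EZH1 were NDUFA5 (0.16), ATP5C1 (0.18) and BCL7C (0.20). None of the other 8 Polycomb genes was as near, which the pool sizes alone make likely, the nearest genes being picked from 10550. How the Polycomb genes ranked among all genes by distance was not counted. BMI1 was the nearest Polycomb gene to both, at 0.71 from EZH2 and 0.67 from EZH1, and EZH2 was 0.90 from EED and 0.92 from EZH1. The closest pair of the 9 was EED with BMI1 (0.53), and the farthest was EZH2 with JARID2 (2.52). The 3 inhibitor comparisons share the vehicle library, so these distances are not independent in their parts.

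JARID2 (ENSG00000008083, chr6:15246296-15522040, + strand) had the widest rise. It was at 11.0 FPKM with vehicle, 25.5 FPKM with SP2509, 14.5 FPKM with UNC0642 and 19.1 FPKM with both, above the shared vehicle library in all 3. The ratio was 2.33 (2.17 to 2.50) with SP2509, where 6.38% of tested genes rose at least as far, and 1.75 (1.62 to 1.88) with both, where 18.8% did. The combination was at 0.750 (0.707 to 0.795) of SP2509 alone. With UNC0642 the ratio of 1.32 (1.22 to 1.43) missed the call on FPKM + 1 (log2 0.38) and passed it with a pseudocount of 0.1 (0.40). With Dox, JARID2 fell in the shLSD1 line, to 7.09 FPKM from 9.87 FPKM (0.719, 0.654 to 0.790) and stood at 9.67 and 9.54 FPKM in the shG9a line. With shLSD1, 10.9% of tested genes fell at least as far. The JARID2 to SUZ12 ratio was 0.579 in vehicle cells, 1.52 with SP2509, 0.639 with UNC0642 and 0.896 with both, and went from 1.02 to 0.646 with Dox in the shLSD1 line and from 0.972 to 0.760 in the shG9a line. With SP2509 JARID2 was the most abundant of the 9 transcripts, ahead of SUZ12 at 16.8 FPKM.

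LSD1 inhibition and LSD1 knockdown, which share no library, thus gave opposite calls for the 3 of the 9 genes called in both, EZH2, EED and JARID2. The shLSD1 calls of EZH2 and EED ended after centring on the median and with the mean of both uninduced lines as control. The signs matched for 4 of 9 genes, and for 32.9% of the 11769 genes tested in both. Opposite signs were thus not particular to the 9 genes, and opposite calls over all genes were not counted. For G9a, the signs of UNC0642 and shG9a matched for 3 of 9 genes and for 48.4% of 11906, and none of the 9 was called in both. Between the 2 knockdowns the signs matched for 7 of 9 genes and for 71.1% of 12325 genes.

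In PRC1, the ligase RNF2 (ENSG00000121481, chr1:185045364-185102608, + strand) was the steadiest gene, at 9.30, 8.74, 9.57 and 11.1 FPKM with vehicle, SP2509, UNC0642 and both. The shLSD1 line had 8.41 FPKM without and 6.83 FPKM with Dox, the shG9a line 7.45 and 7.39 FPKM, and no value was called. Its paralog RING1 was more abundant in every library and was called lower with UNC0642 (26.4 to 18.6 FPKM), with both (17.2 FPKM) and with shG9a (46.7 to 32.8 FPKM). The RNF2 share of the 2 ligases was 26.1% with vehicle and 39.4% with both inhibitors, and 13.8% and 18.4% without and with Dox in the shG9a line.

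BMI1 (ENSG00000168283, chr10:22321211-22331484, + strand), the PCGF subunit known for repressing the INK4A locus, was at 4.32 FPKM with vehicle, 2.14 FPKM with SP2509, 4.29 FPKM with UNC0642 and 3.31 FPKM with both. It fell with SP2509 (ratio 0.494, 0.406 to 0.601), from 290 reads to 163, where 21.1% of tested genes fell at least as far. It went from 4.01 to 4.44 FPKM with shLSD1 and from 4.31 to 5.41 FPKM with shG9a, neither called. The PCGF transcripts, BMI1 included, summed to 30.2 to 34.1 FPKM in the 8 libraries of the 2 separately normalized tables, and BMI1 made 13.8% of them with vehicle and 6.99% with SP2509. PCGF1 was called higher with SP2509, at 6.27 and 10.6 FPKM, and PCGF5 and PCGF6 lower. The neighbouring COMMD3, whose transcripts can run into BMI1, was at 0.214 to 0.620 FPKM.

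**Figure D3:**
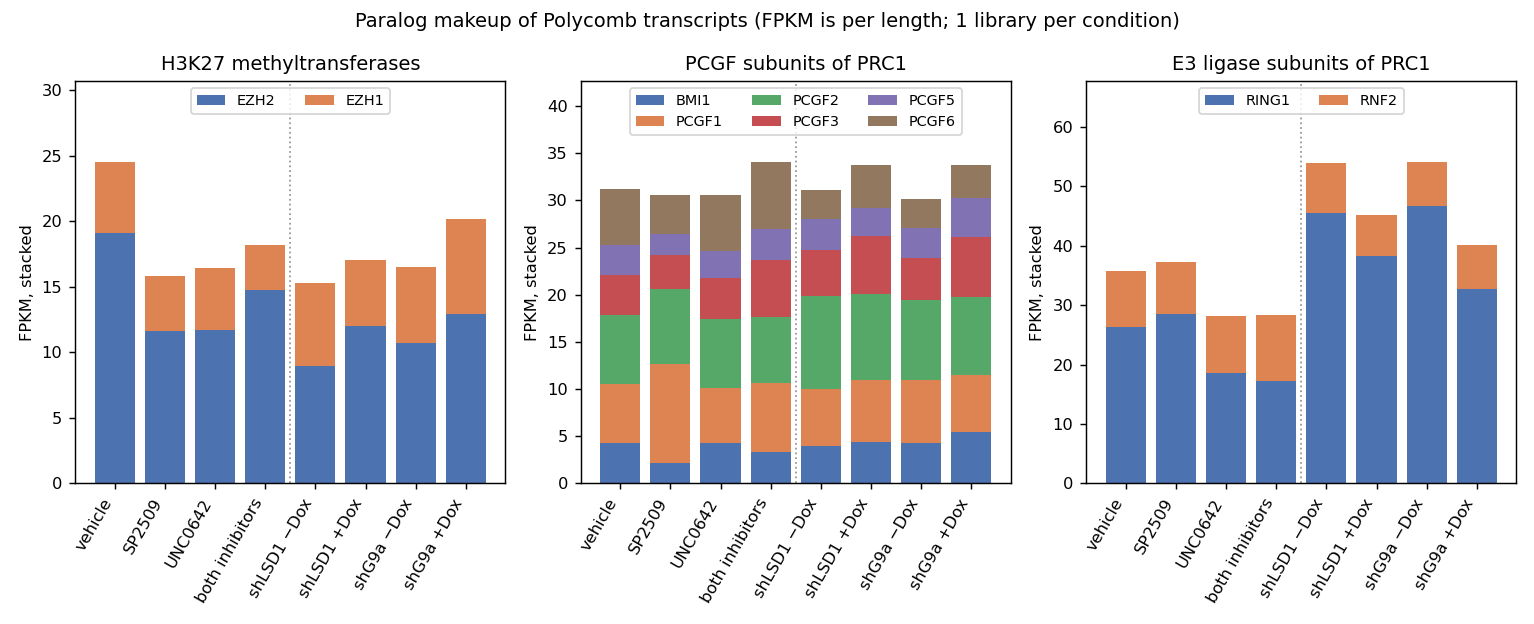
Stacked FPKM (vertical axis, from 0) of the methyltransferases, the PCGF subunits and the E3 ligases in the 8 libraries, with a dotted line between the 2 tables. The EZH1 and EZH2 sum was 24.6 FPKM with vehicle and 15.8 FPKM with SP2509, and BMI1 made 6.99% of the PCGF sum with SP2509 against 13.8% with vehicle.

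CBX2 (ENSG00000173894, chr17:79778132-79787983, + strand) had the widest range of the 9 genes, 6.16-fold. It was at 6.70 FPKM with vehicle, 2.17 FPKM with SP2509, 8.81 FPKM with UNC0642 and 13.4 FPKM with both. SP2509 alone was below vehicle and the other 2 inhibitor libraries were above it. The ratio was 0.324 (0.276 to 0.379) with SP2509 and 2.00 (1.81 to 2.20) with both, so that the combination was 6.16-fold (5.34 to 7.14) above SP2509 alone and 1.52-fold (1.40 to 1.66) above UNC0642 alone. Of tested genes, 6.75% fell at least as far with SP2509, and 15.3% rose at least as far with both. The UNC0642 ratio of 1.31 (1.18 to 1.46) missed the call (log2 0.35) and passed with a pseudocount of 0.1 (0.39). It was at 7.57 and 7.28 FPKM without and with Dox in the shLSD1 line, and at 8.28 and 9.94 FPKM in the shG9a line. CBX8 (ENSG00000141570, chr17:79792132-79801683, − strand), known for its role with MLL-AF9 in leukaemia, lies 4148 bases from CBX2 on chromosome 17 and faces it on the other strand. It did not share the CBX2 pattern. It was at 3.02, 3.64, 2.60 and 3.51 FPKM with vehicle, SP2509, UNC0642 and both, and no inhibitor value was called. In the shG9a line it rose from 4.23 FPKM to 6.02 FPKM with Dox (1.42-fold, 1.23 to 1.66), a call that ended with ratios centred on the median (log2 0.28). With shG9a, 29.1% of tested genes rose at least as far. In the shLSD1 line CBX8 was at 4.29 and 4.58 FPKM. The CBX2 to CBX8 ratio was 2.22 in vehicle cells and 0.597 with SP2509, the single library with more CBX8 than CBX2 per length, and reached 3.38 with UNC0642 and 3.81 with both. It was 1.77 and 1.59 without and with Dox in the shLSD1 line, and 1.96 and 1.65 in the shG9a line.

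The rest of the Polycomb machinery was taken from a list, of which 42 genes in both tables are reported. With SP2509, 6 of 39 tested genes were called higher and 13 lower, against 18.2% and 37.5% of all tested genes. With UNC0642 they were 8 and 2 of 40 (15.8% and 14.0% of all), and with both 13 and 8 of 40 (29.0% and 29.1%). With shLSD1 7 and 4 of 41 were called higher and lower (22.7% and 10.4%), with shG9a 11 and 7 of 41 (30.0% and 15.8%), and between the uninduced lines none. Most of these counts were near or below the shares over all genes. The median log2 fold changes were -0.15, 0.02, 0.12, 0.12 and 0.14. In all, 8 genes were called in 1 direction in at least 3 comparisons, RING1 among them. The share of all tested genes that met this rule was not counted, and the 3 inhibitor comparisons share 1 vehicle library. RYBP, a subunit of variant PRC1, rose from 9.78 FPKM to 24.5, 15.1 and 27.5 FPKM with SP2509, UNC0642 and both, and fell with Dox from 14.6 to 7.89 FPKM and from 14.4 to 6.93 FPKM in the shLSD1 and shG9a lines. It was the single listed gene called in all 5. KDM6B, an H3K27 demethylase, rose from 6.64 FPKM to 9.04, 8.97 and 27.9 FPKM with SP2509, UNC0642 and both. PHC2, a polyhomeotic subunit of canonical PRC1, was called higher in all comparisons but SP2509, and SCML2 in the combination and both knockdowns. MTF2, which brings PRC2 to CpG islands, was called higher with SP2509, shLSD1 and shG9a. AEBP2, another PRC2 accessory gene, was called lower in the combination and both knockdowns, and MBD6, of the PR-DUB deubiquitinase, with SP2509, UNC0642 and shG9a.

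**Figure D4:**
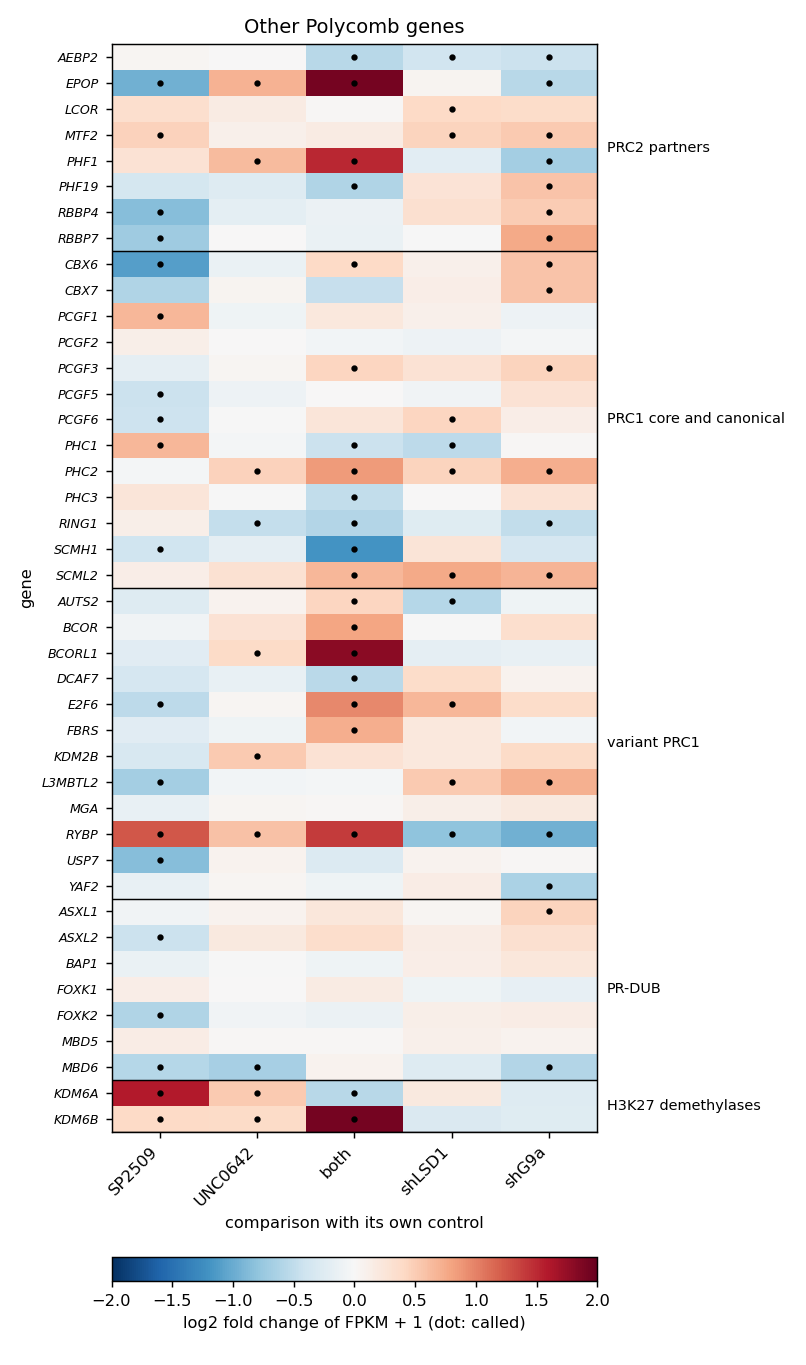
Log2 fold change of FPKM + 1 (colour, drawn at the end of the scale beyond -2 and 2) of the 42 other Polycomb genes (rows, by complex) in the 5 comparisons (columns), with a dot where a gene was called. RYBP was called in all 5, higher with the inhibitors and lower in the induced lines, and PHC2 higher in 4.

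Genes of the cell cycle moved in some of the same libraries. Of 12 proliferation genes, 2 were called higher and 5 lower with SP2509, 4 higher and 0 lower with UNC0642, and 6 higher and 6 lower with both, against 18.2% and 37.5%, 15.8% and 14.0%, and 29.0% and 29.1% of all tested genes. With Dox, 9 of 11 were higher in the shLSD1 line (22.7% of all tested genes) and 11 of 12 in the shG9a line (30.0%), and 0 lower (10.4% and 15.8%). The median log2 fold changes were -0.17, 0.18, -0.08, 0.62 and 0.91. PCNA, the replication clamp, was at 60.2, 21.1, 108 and 144 FPKM with vehicle, SP2509, UNC0642 and both, and went from 22.9 to 43.4 FPKM and from 28.3 to 76.3 FPKM with Dox. E2F1 was at 7.86, 5.07, 11.0 and 30.8 FPKM, and went from 3.83 to 7.30 FPKM and from 3.74 to 12.0 FPKM. The marker MKI67 was at 20.5, 15.8, 22.2 and 13.3 FPKM, and went from 3.17 to 6.62 FPKM and from 3.41 to 10.6 FPKM. PCNA, E2F1 and MKI67 were thus all below vehicle with SP2509. The 2 genes called higher there were CDK1, from 21.3 to 44.3 FPKM, and TOP2A, from 100 to 136 FPKM. The part of proliferation in the Polycomb values was not tested.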

How the data were processed

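RNA was extracted from 8 Kyse510 cultures and sequenced as paired-end libraries. According to the study's methods and the submitters' processing notes, low-quality reads were removed and the rest mapped to GRCh38. The aligner, the counter and the use of strand are not given in the sources used here. The authors deposited FPKM per gene in 2 tables, which were normalized separately, so that tests were made only within a table. The symbols, gene identifiers and coordinates were those of the deposited tables.

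The total of each library was estimated from genes of 1 exon, whose length in GENCODE 44 is known, as the number that turned their FPKM into whole reads. The length of each other gene was the smallest whole number that gave whole reads in its table, raised to a multiple of up to 4 where the reference or the other table called for it. These reads summed to 99.6% to 99.8% of the totals. The lengths of the 9 genes were the same in both tables. Each comparison was run over the whole table with a pseudocount of 1 FPKM, at least 1 FPKM in at least 1 of the 2 libraries, a fold change of 1.3 and a two-sided exact binomial test given the totals (scipy 1.17.1), p below 0.05 and unadjusted. Levels have exact Poisson intervals and ratios exact Clopper-Pearson intervals, at 95%. The steps were tested on simulated data.

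The 9 genes, the gene lists, the markers and the motifs were chosen with earlier results of these data known. Named were the 9 genes, listed Polycomb genes called in 1 direction in at least 3 of 5 comparisons, paralogs where a share is given, KDM1A and EHMT2, and 3 proliferation genes. An item of the longer Polycomb list, and shares that need it, are not reported here. For EZH2 and EZH1 the 3 nearest protein-coding genes were named. EPOP, KDM6A, WNT5A, RUNX3, KRT17, SOX2, SUZ12P1, COMMD3, CDK1 and TOP2A were outside this rule and were named after their values were seen. The alternatives were a pseudocount of 0.1, no filter, a filter of 5 FPKM, a fold of 2, centring of the ratios on the median over genes that reached 5 FPKM in both libraries, the fold alone, Benjamini-Hochberg adjustment, the smallest length, and the mean of both uninduced lines as control.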

Additional observations from a re-analysis of the deposited data

Results flagged for a closer look

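For EZH1 and CBX2, the change with doxycycline had opposite signs in the 2 knockdown lines, each with 1 library pair. The log2 fold change of EZH1 was -0.28 in the shLSD1 line and 0.30 in the shG9a line. That of CBX2 was -0.049 in the shLSD1 line, where the interval of the ratio (0.868 to 1.07) held 1, and 0.24 in the shG9a line. None of the 4 values was called, and the differences between the lines were not tested.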

How the results depend on the processing

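No called value changed direction. With ratios centred on the median, 2 uncalled values near 0 changed sign, RNF2 with SP2509 (0.015) and CBX8 with shLSD1 (-0.032), and so did the median of the 9 genes with shLSD1 (-0.032). The counts of the 9 genes and of both longer lists moved by less than 1.5 times with Benjamini-Hochberg adjusted p, the fold alone, no filter and the smallest length. A fold of 2 left 1 of the 9 genes lower with SP2509 (CBX2), and 0 lower with UNC0642, 0 higher and 0 lower with both and with shLSD1, and 0 higher with shG9a. With a pseudocount of 0.1, 2 were higher with UNC0642, JARID2 (0.40) and CBX2 (0.39). With ratios centred on the median, 1 was higher with UNC0642 (JARID2, 0.38), 2 were lower with both (EZH2 at -0.38 besides EZH1), 0 were higher and 2 lower with shLSD1 (EZH2 at 0.28, EED at 0.27, EZH1 at -0.39), and 0 were higher with shG9a (CBX8 at 0.28). With the mean of both uninduced lines as control, 0 were higher with shLSD1 (EZH2 at 0.26, EED at 0.34). The median shift of genes with at least 5 FPKM was 0.11 with shLSD1 and 0.14 with shG9a. Of the longer lists, the 42 other Polycomb genes had 5 in place of 8 higher with UNC0642, 5 in place of 8 lower with both, and 4 in place of 7 higher and 2 in place of 4 lower with shLSD1, under a filter of 5 FPKM. They had 17 in place of 11 higher with shG9a at a pseudocount of 0.1, and after centring 3 in place of 7 higher with shLSD1 and 7 in place of 11 with shG9a. At a fold of 2 they had 2 higher and 1 lower with SP2509, 0 and 0 with UNC0642, 5 and 1 with both, 0 and 0 with shLSD1, and 0 and 0 with shG9a, and the proliferation genes 1 and 3 with SP2509, 0 higher with UNC0642, 2 and 2 with both, and 0 and 5 higher with shLSD1 and shG9a. No paired analysis was possible because each condition had 1 library. Depth limits CBX8 and BMI1 most, at 163 to 434 reads, where the intervals of a ratio are widest.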

Other observations

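Many developmental genes known as PRC2 targets were below 1 FPKM. Of the 28 listed, 20 were in the inhibitor table and 19 in the knockdown table, and 7 to 11 reached 1 FPKM in each library. Among those tested, 3 of 8 were called higher and 5 lower with SP2509, 2 and 3 of 9 with UNC0642, and 6 and 3 of 11 with both. Over all tested genes, the shares called higher and lower were 18.2% and 37.5%, 15.8% and 14.0%, and 29.0% and 29.1%. With Dox, 1 of 8 was higher and 5 were lower in each line, against 22.7% and 10.4% of all tested genes with shLSD1 and 30.0% and 15.8% with shG9a. The counts rest on few genes and were not tested against these shares. WNT5A, a secreted ligand, was at 29.3, 1.44, 14.1 and 2.76 FPKM with vehicle, SP2509, UNC0642 and both, and RUNX3, a transcription factor, at 1.65, 3.47, 4.67 and 8.32 FPKM. RUNX3 went from 6.38 to 1.36 FPKM and from 6.39 to 1.71 FPKM with Dox in the shLSD1 and shG9a lines. Both were named after their values were seen.

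KDM6A, the X-linked H3K27 demethylase, was at 12.4, 39.2, 18.3 and 8.12 FPKM with vehicle, SP2509, UNC0642 and both, called higher with each compound alone and lower with the 2 together. EPOP, a PRC2 partner, was at 2.30, 0.695, 4.33 and 11.4 FPKM, called lower with SP2509 and higher with UNC0642 and with both. With Dox it went from 2.41 to 2.53 FPKM in the shLSD1 line, not called, and was called lower in the shG9a line, from 2.60 to 1.46 FPKM. These 2 genes were chosen after their values were seen.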
